A study of Mus musculus with 6 samples.

Results

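Enzymes that couple glutathione, sugar or sulfate to other molecules were examined in mouse kidney mRNA. They were chosen by symbol among the protein-coding genes of GENCODE M21, taking names that begin with Gsta, Gstm, Gstp, Gstt, Gsto, Gstk or Mgst (glutathione S-transferases), Ugt (UDP-glycosyltransferases) or Sult (cytosolic sulfotransferases) followed by a digit, with Gstz1 left out. The rule gave 67 of the 55450 genes counted, 24 of them Gst, 22 Ugt and 21 Sult, and 7 pseudogenes with such names were not included. All mice were wild-type C57BL/6J males bought at 7 weeks of age and kept for 1 week before the study. The day-21 group (3 kidneys) received adenine at 0.16 g/kg together with potassium oxonate at 2.4 g/kg by gavage once daily, which models kidney injury by uric acid. The day-0 group (3 kidneys) was the control, and its labels name 20% PEG as its treatment. According to the study's methods, which do not mention PEG, each group was killed on its own day. That would make day-0 mice younger at death than mice treated for 21 days, so age and treatment cannot be told apart.

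Conjugation makes drugs, hormones, bile acids and reactive lipids more soluble, so that transporters can carry them into urine or bile. Gst enzymes add glutathione, and the product is trimmed to a mercapturate at the brush border and inside the proximal tubule cell. Ugt enzymes transfer a sugar, mostly glucuronic acid, from a UDP-sugar inside the endoplasmic reticulum, and Sult enzymes transfer sulfate from the donor PAPS in the cytosol. In the kidney much of this work is done in the proximal tubule.

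Libraries held between 10963849 and 14333311 counts, and 40 of the 67 enzymes had enough counts to be tested. Levels are given as CPM, read counts made comparable between libraries by TMM scaling and expressed on a common library total, and a change was called where the fold passed 1.5 and the adjusted p was below 0.05 in edgeR's quasi-likelihood test over 16592 genes. A floor of 3 counts corresponded to between 0.179 and 0.309 CPM, for counting error only. Of these 40 enzymes, 35 had at least 1 mouse in each group over the cutoff of the filter on low counts. Another 4 passed the filter through day 21 alone and 1 through day 0 alone. The tubule genes that define kidney tissue were high, with Slc34a1 at 4340 to 5438 CPM and Umod at 3989 to 5421 CPM on day 0, while of 4 adrenal cortex genes Cyp11a1 and Cyp11b1 were at or under the floor in every mouse, Cyp21a1 reached 0.537 CPM in 1 mouse and Star lay between 2.12 and 4.31 CPM. The day-0 mouse of replicate 1 stood apart in targets of the oxidative stress factor Nrf2, with Hmox1 at 750 CPM against 57.9 and 43.7 in the other day-0 mice and Srxn1 at 350 CPM against 107 and 85.7. The day-0 mouse of replicate 3 was lowest in Gsta2 and Gsta4. Values without one of these mice are given for several enzymes, but not for genes outside the 67 enzymes. The labels name no batch.

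On day 21 the kidney held much less Ugt mRNA, less Sult mRNA (a ratio of 0.534 to day 0), and a Gst total whose range overlapped that of day 0. Summed Ugt mRNA was 2894, 3206 and 3201 CPM on day 0 and 1000, 673 and 867 CPM on day 21. Every day-21 kidney lay below every day-0 kidney, and the mean went from 3100 ± 178 to 847 ± 164 CPM (SD, n = 3 each), a ratio of 0.273. Summed Sult mRNA went from 855 ± 53.6 to 457 ± 22.4 CPM (SD, n = 3 each), also without overlap. Summed Gst mRNA was 1702, 1868 and 1338 CPM on day 0 and 1434, 1215 and 1317 CPM on day 21, so that the lowest day-0 kidney lay within the day-21 range. With libraries scaled by total counts alone, the log2 ratio of the sums was -1.49 for Ugt (-1.87 with TMM), -0.52 for Sult (-0.90) and 0.08 for Gst (-0.31), so that the Gst sum changed sign. By class, Ugt3a carried most of the loss, from 1919 ± 117 to 338 ± 64.8 CPM (SD, n = 3 each), while Gsto went from 46.5 ± 13.9 to 92.8 ± 9.8 CPM and Mgst stayed within its day-0 range of 142 to 189 CPM.

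**Figure D1:**
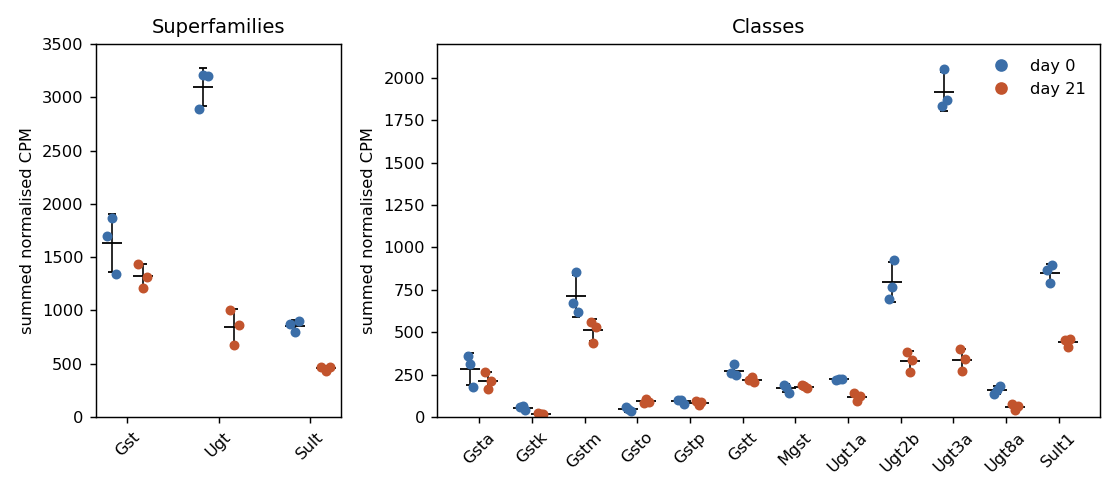
Summed normalised CPM of all members of each superfamily (left) and of the larger classes (right), with 1 point per kidney, a horizontal bar at the mean and an error bar of 1 SD (n = 3). The Ugt sum lies at 2894 to 3206 CPM on day 0 and at 673 to 1000 CPM on day 21, and Ugt3a makes up most of that difference.

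Of the 40 enzymes tested, 8 were called higher and 12 lower on day 21, and 20 were not called. Among all genes tested 19.6% were called higher and 15.5% lower (35.1% in either direction), beside 20% and 30% of the enzymes. Of the 8 called higher, Gsta1, Gstp3, Sult4a1 and Sult6b1 had passed the filter through day 21 alone, the group in which they were high. Among the 35 with at least 1 mouse over the cutoff in each group, 4 were called higher (11.4%) and 11 lower (31.4%). Of those called higher, Ugt1a10 was over the cutoff in only 1 day-0 mouse and Gstm6 in 2. The median log2 fold change of the 40 was -0.33, beside 0.03 over all genes, and that of the 35 was -0.43. Shares and medians over all genes were not taken under the condition of the 35. Those given here are therefore not a like background for the 35. Within the superfamilies, 7 of 12 Ugt enzymes were called lower and 1 higher (median -1.27), 4 of 20 Gst enzymes lower and 5 higher (median -0.20), and 1 of 8 Sult enzymes lower and 2 higher (median -0.01). The groups did not overlap in 24 of the 40, with day 21 above in 10 and below in 14, while 57.1% of all genes tested did not overlap (30.7% above and 26.4% below). At an adjusted p below 0.05 and any fold, 8 enzymes were higher and 16 lower, beside 45.6% of all genes in either direction. Scaling by library size alone gave 11 higher and 10 lower, and moved the median to 0.07 for the enzymes and to 0.42 for all genes, while the share of all calls that were higher went from 55.8% to 81.7%. Of the 25 enzymes with a mean of at least 10 CPM, 2 were called higher and 11 lower, against 14.6% and 18.7% of all genes at that level. Without the day-0 mouse of replicate 1 the calls were 9 higher and 14 lower, and without that of replicate 3 they were 8 higher and 17 lower.

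**Figure D2:**
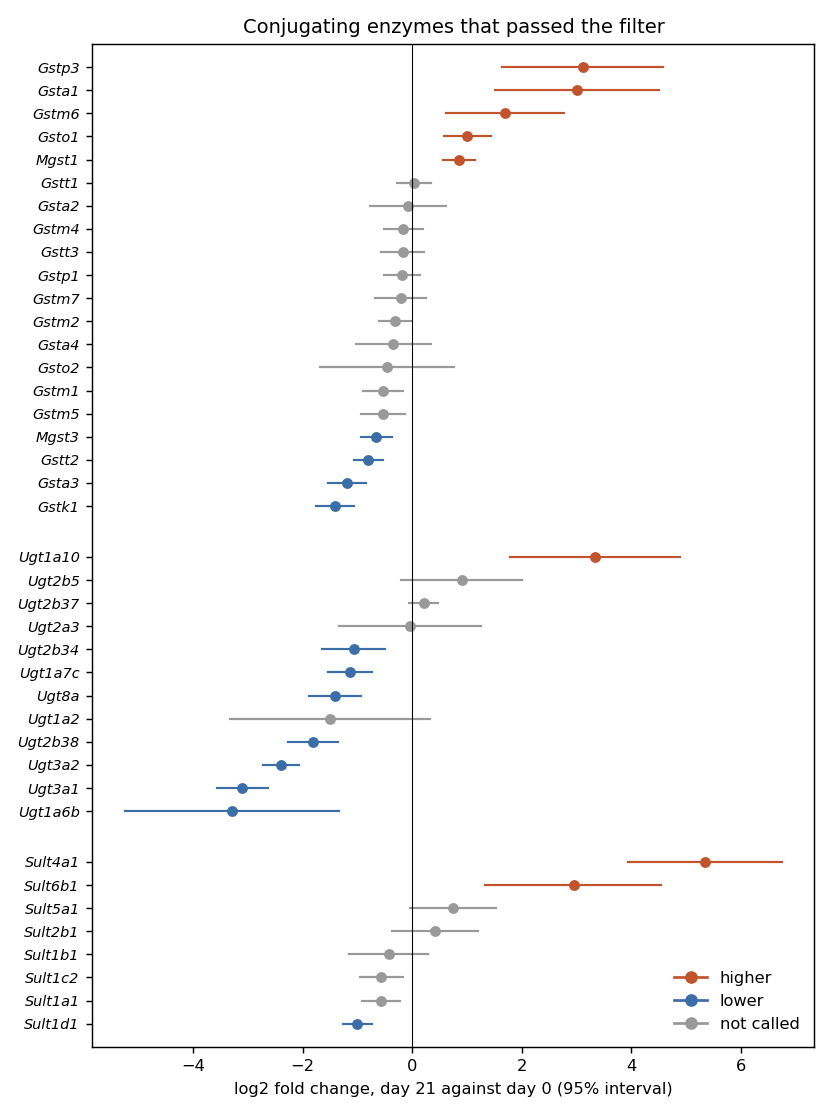
Log2 fold change of day 21 against day 0 for the 40 enzymes tested, with 95% intervals from edgeR, grouped as Gst (top), Ugt (middle) and Sult (bottom) and coloured by the call. Among the Ugt enzymes 7 points are called lower and Ugt1a10 is called higher, while the Gst enzymes spread from -1.40 (Gstk1) to 3.12 (Gstp3).

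Proximal tubule markers were lower in the same kidneys. All 10 markers on the list were called lower, with log2 fold changes from -3.79 to -1.37, and their summed level ran from 15558 to 17534 CPM on day 0 and from 3626 to 4757 CPM on day 21. Markers of other nephron segments were called lower as well, with 3 of 3 for podocytes, 2 of 3 for the thick ascending limb and distal tubule and 2 of 3 for the collecting duct, and 1 of 4 endothelial markers. All 7 leukocyte markers were called higher (summed 117 to 139 CPM on day 0, 495 to 680 CPM on day 21), as were all 4 fibroblast markers (114 to 185 CPM, then 771 to 1476 CPM). In whole tissue, fewer cells of a type and less RNA per cell cannot be told apart, and the part of these shifts in the values of the enzymes was not tested.

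The Ugt3a pair, which transfer sugars other than glucuronic acid, showed the largest falls among enzymes with a mean of at least 10 CPM. Ugt3a2 (ENSMUSG00000049152.11, chr15:9335550-9370955 on GRCm38, plus strand) had the highest level per kilobase of exon of all 67 enzymes on day 0, at 505 CPM per kb, and stood at 95.8 CPM per kb on day 21. Its level was 1476, 1692 and 1531 CPM on day 0 and 346, 243 and 302 CPM on day 21. No day-21 kidney came near the day-0 range, and the fall was 5.27-fold (log2 fold change -2.40, SE 0.15, adjusted p = 2.2e-06). Its neighbour Ugt3a1 (ENSMUSG00000072664.11, chr15:9276888-9315032, plus strand) was at 361, 362 and 336 CPM on day 0 and at 56.1, 29.4 and 37.7 CPM on day 21. The day-0 kidneys were close together and all far above day 21, and the fall was 8.61-fold (log2 fold change -3.11, SE 0.21, adjusted p = 3.1e-06). In the longest transcripts, 9.38% of the 50-base words of Ugt3a1 also occur in another gene, chiefly Ugt3a2, so most of the sequence counted for it is its own. Ugt3a2 took 50.5% ± 2.51 (SD, n = 3) of the Ugt sum on day 0 and 35.2% ± 0.832 on day 21.

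On day 21 the order of levels per kilobase was different. Gstm1, behind Ugt3a2 and Ugt2b38 on day 0 at 337 CPM per kb, led on day 21 at 234 CPM per kb, followed by Sult1d1 (152 CPM per kb, from 305) and Gsta2 (122 CPM per kb, from 128). Ugt3a2 and Ugt2b38, the leading pair on day 0, stood at 95.8 and 98.2 CPM per kb, near each other on day 21. The ratio of Ugt3a2 to Gstm1 in CPM was 3.38, 2.76 and 3.48 on day 0 and 0.893, 0.843 and 0.843 on day 21.

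In the Ugt2b cluster on chromosome 5, whose enzymes glucuronidate steroids, bile acids and drugs, a pair of close relatives parted. Ugt2b38 (ENSMUSG00000061906.5, chr5:87409942-87424203, minus strand) was at 550, 622 and 777 CPM on day 0 and at 224, 131 and 202 CPM on day 21. The groups did not overlap, and the fall was 3.5-fold (log2 fold change -1.81, SE 0.20, adjusted p = 6.1e-05). Ugt2b37 (ENSMUSG00000057425.3, chr5:87240493-87254804, minus strand), named here after its values were seen, was at 89.7, 111 and 113 CPM on day 0 and at 130, 115 and 118 CPM on day 21. All day-21 kidneys lay slightly above day 0, but the change was not called (log2 fold change 0.21, 95% interval -0.06 to 0.48, adjusted p = 0.182), although it was called higher at 0.60 under library-size scaling. The ratio of Ugt2b38 to Ugt2b37 in CPM was 6.13, 5.61 and 6.88 on day 0 and 1.73, 1.14 and 1.71 on day 21. Of the 50-base words, 37.4% of Ugt2b38 and 18.3% of Ugt2b37 also occur in another gene, chiefly Ugt2b5 (34.1% and 15.2%). Some reads of each may therefore have been split or dropped in counting.

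Upstream sequence of this pair was compared because their mRNA levels parted. In RefSeq promoter windows on GRCm38.p6, a stretch of 232 bases that ends 2 bases before the start of Ugt2b38 and 16 bases before that of Ugt2b37 aligned without a gap, with 220 bases identical (94.8%) and 12 different. Both stretches are on the minus strand, at chr5:87424206-87424437 for Ugt2b38 and chr5:87254805-87255036 for Ugt2b37, and lie outside annotated exons. They are written 5′ to 3′, with capitals at the 12 bases that differ.
Ugt2b38: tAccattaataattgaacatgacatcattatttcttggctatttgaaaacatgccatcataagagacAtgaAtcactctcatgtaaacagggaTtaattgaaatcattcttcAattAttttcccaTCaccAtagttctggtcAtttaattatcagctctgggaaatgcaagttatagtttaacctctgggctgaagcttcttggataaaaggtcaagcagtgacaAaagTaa
Ugt2b37: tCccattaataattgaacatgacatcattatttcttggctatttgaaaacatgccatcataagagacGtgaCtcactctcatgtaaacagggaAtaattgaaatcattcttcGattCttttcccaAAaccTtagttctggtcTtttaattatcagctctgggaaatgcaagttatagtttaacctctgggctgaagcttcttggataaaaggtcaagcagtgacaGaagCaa
The differences are spread over the stretch, and nothing in these data tells whether any of them bears on the counts.

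The other Ugt2 genes were lower or sparse. Ugt2b34 fell from 39.9 ± 12.9 to 19.1 ± 6.22 CPM (SD, n = 3 each, log2 fold change -1.07, adjusted p = 0.00681). Ugt2b5 was at 0.659 to 3.11 CPM on day 0 and at 2.54 to 3.7 CPM on day 21, and was not called (0.91, adjusted p = 0.163). It was called higher without the day-0 mouse of replicate 1 (1.75, adjusted p = 0.00912) and under library-size scaling (1.29, adjusted p = 0.0498). Of its 50-base words, 41.7% also occur in another gene, chiefly Ugt2b38 (34.8%). Ugt2a3 was at 0.702, 0.659 and 1.75 CPM on day 0 and at 1.77, 0.597 and 0.674 CPM on day 21, with a full overlap. Ugt8a, the ceramide galactosyltransferase of sphingolipid synthesis (ENSMUSG00000032854.12, chr3:125865271-125938619, minus strand), was at 138, 160 and 183 CPM on day 0 and at 74.1, 39.5 and 67.6 CPM on day 21. Its groups were well apart, with a fall of 2.65-fold (log2 fold change -1.41, SE 0.21, adjusted p = 4.1e-04).

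Ugt1a enzymes, which glucuronidate bilirubin, phenols and drugs, come from 1 locus on chromosome 1 in which each has its own first exon and all share the last ones. Reads in the shared exons belong to every member alike, and 54.6% of the exon bases of Ugt1a7c and 58.1% of those of Ugt1a10 lie in exons of another gene on the same strand, so single Ugt1a rows are uncertain. Summed over the locus, the level was 221, 226 and 223 CPM on day 0 and 138, 94.1 and 121 CPM on day 21. The day-0 kidneys were nearly equal and all above day 21 (log2 fold change -0.92, SE 0.14, adjusted p = 4.4e-04). Ugt1a7c (ENSMUSG00000090124.7, chr1:88095062-88220002, plus strand) held most of these counts, at 194, 220 and 220 CPM and then 120, 68.4 and 102 CPM (log2 fold change -1.13, SE 0.18, adjusted p = 6.0e-04).

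The row of Ugt1a10 (ENSMUSG00000090165.8, chr1:88055388-88219004, plus strand) went the other way. Of its exon bases, 23.6% also lie in exons of Gm20528 on the opposite strand. How strand was used in counting is not known, so the row could hold reads of that gene. Raw counts of 47, 8 and 0 for day 0 stood against 185, 383 and 284 for day 21, or 4.71, 0.659 and 0 CPM and then 13.1, 22.8 and 17.4 CPM. The day-0 mouse of replicate 1 was the highest of its group and still below all day-21 mice. The change was called by edgeR (log2 fold change 3.34, SE 0.70, adjusted p = 0.00316) and not by DESeq2 (3.29, adjusted p = 0.0686). Without that mouse edgeR gave 5.56 (adjusted p = 2.4e-05), and without any other single mouse between 2.78 and 3.51. Ugt1a9 was not tested, and its raw counts were 1, 0 and 0 and then 15, 10 and 8. Ugt1a6b was at 1.7, 1.15 and 1.86 CPM on day 0 and at 0.495, 0 and 0 CPM on day 21, and was called lower (log2 fold change -3.29, SE 0.88, adjusted p = 0.0116), having passed the filter through day 0 alone. Without day-21 replicate 1 no count was left on day 21, and without either other day-21 mouse the value was -2.68 or -2.69. Ugt1a2 was at 16.3, 3.3 and 0.721 CPM on day 0 and at 3.89, 2.09 and 1.23 CPM on day 21. Its log2 fold change of -1.50 (adjusted p = 0.161) rested on the day-0 mouse of replicate 1, which was high in Hmox1, and was 0.18 without it (adjusted p = 0.844). Without the day-0 mouse of replicate 3 it was called lower at -2.04 (adjusted p = 0.0218), and likewise with no filter on low counts (-1.49).

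**Figure D3:**
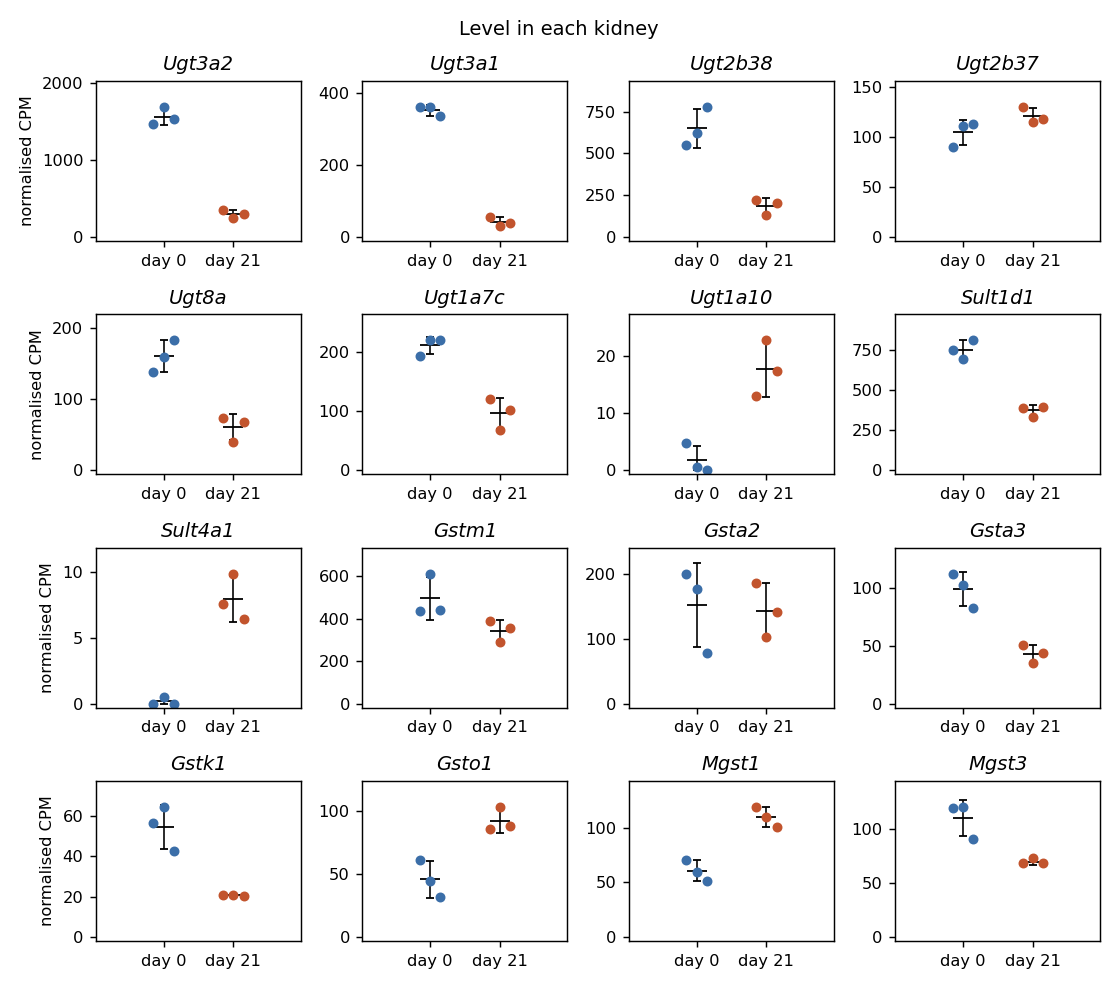
Normalised CPM of 16 enzymes in each kidney, with 1 point per mouse, a horizontal bar at the mean and an error bar of 1 SD (n = 3) that ends at 0 where it would pass below. Ugt3a2, Ugt3a1, Ugt2b38, Ugt8a, Ugt1a7c, Sult1d1, Gstm1, Gsta3, Gstk1 and Mgst3 are lower in every day-21 kidney. Ugt1a10, Sult4a1, Gsto1, Mgst1 and Ugt2b37 are higher in every one, and Gsta2 overlaps. Gstm1 and Ugt2b37 are not called.

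Among sulfotransferases, Sult1d1, which sulfates catecholamines and related amines, made up most of the mRNA. Sult1d1 (ENSMUSG00000029273.10, chr5:87554645-87569027, minus strand) was at 748, 690 and 809 CPM on day 0 and at 388, 335 and 397 CPM on day 21. The groups were clearly apart, with a fall of 2.01-fold (SE 0.12 on the log2 scale, adjusted p = 8.6e-05), and it held 87.5% ± 2.29 (SD, n = 3) of the Sult sum on day 0 and 81.6% ± 3.53 on day 21. Sult1a1, a phenol sulfotransferase (-0.57, adjusted p = 0.0139), and Sult1c2 (-0.56, adjusted p = 0.0264) passed the adjusted p but stayed under a fold of 1.5 with TMM, and were called lower with DESeq2 and with RLE scaling (-0.60 for each in both). Sult1b1 was not called (-0.43, adjusted p = 0.309).

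The sulfotransferases called higher were of low level. Sult4a1, known mainly from the brain and without a well-established substrate (ENSMUSG00000018865.9, chr15:84076097-84105754, minus strand), gave raw counts of 0, 6 and 0 in the day-0 kidneys against 107, 166 and 105 in the day-21 kidneys. That is 0, 0.495 and 0 CPM and then 7.56, 9.9 and 6.43 CPM, so that 1 day-0 kidney, that of replicate 2, held all day-0 counts and none was left without it (log2 fold change 5.35, SE 0.63, adjusted p = 8.0e-05). Sult6b1 was at 0.201, 0 and 0.206 CPM on day 0 and at 1.27, 1.13 and 0.735 CPM on day 21. With 4 counts in all on day 0 and 49 on day 21, its ratio of summed counts, scaled to the libraries, was 8.24 (95% interval 3.02 to 31.5 for counting error), and edgeR's adjusted p was 0.00724 (log2 fold change 2.95, and 2.31 without day-0 replicate 2). Both passed the filter through day 21 alone. Sult5a1 was at 1, 1.24 and 1.03 CPM and then 2.12, 1.73 and 1.72 CPM, above day 0 in every day-21 mouse but not called (0.75, 95% interval -0.03 to 1.54, adjusted p = 0.109), although it was called higher at 1.14 under library-size scaling. Sult2b1, a cholesterol sulfotransferase, was at 2.21, 2.8 and 2.47 CPM and then 1.91, 3.76 and 4.29 CPM, with overlap. The steroid sulfotransferases Sult2a1 to Sult2a8, which are liver enzymes, had at most 3 counts in any kidney.

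Of 20 glutathione S-transferases tested, 5 were called higher (25%) and 4 lower (20%), beside 19.6% and 15.5% of all genes tested. Both directions occurred within the alpha and the microsomal class. In the alpha class, which conjugates products of lipid peroxidation, Gsta3 (ENSMUSG00000025934.15, chr1:21240589-21265661, plus strand) was at 112, 102 and 82.6 CPM on day 0 and at 50.8, 35.3 and 43.4 CPM on day 21. The groups were apart and the fall was 2.29-fold (log2 fold change -1.19, SE 0.16, adjusted p = 1.7e-04). Of the 50-base words of Gsta2, 64.2% also occur in another gene, chiefly Gsta1 (44.8%). Its level was 200, 176 and 77.9 CPM on day 0 and 186, 102 and 141 CPM on day 21. The day-0 mouse of replicate 3 was below all others, and the log2 fold change was -0.08 (95% interval -0.77 to 0.61) with it and -0.41 without it. Gsta4, which conjugates 4-hydroxynonenal, was not called with all mice (-0.34) and was called lower without that mouse (-0.69, adjusted p = 0.00607). Gsta1 was at 0.501, 0.0824 and 0.103 CPM on day 0 and at 2.9, 1.25 and 1.47 CPM on day 21 (log2 fold change 3.01, adjusted p = 0.00437), and its log2 fold change was 4.19 without day-0 replicate 1. Of its 50-base words, 89.7% occur elsewhere, mostly in Gm3776, and it passed the filter through day 21 alone.

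Gstm1 (ENSMUSG00000058135.12, chr3:108012255-108017973, minus strand), the leading mu-class enzyme, was at 436, 613 and 440 CPM on day 0 and at 388, 289 and 358 CPM on day 21. Every day-21 kidney was below day 0, but the fold was under 1.5 (log2 fold change -0.53, SE 0.16, adjusted p = 0.0238). Without day-0 replicate 1, day-0 replicate 3 or day-21 replicate 1 it was called lower, at -0.62 to -0.63. Gstm5 was similar with all mice (-0.53, adjusted p = 0.036) and was called lower without day-0 replicate 3 (-0.74). Gstm2, Gstm4 and Gstm7 had log2 fold changes of -0.31, -0.16 and -0.21, none of them called and each above 0 under library-size scaling. Gstm6 was the mu-class member called higher, at 1.5, 2.47 and 0.309 CPM and then 5.51, 4.71 and 4.04 CPM (1.69, SE 0.49, adjusted p = 0.0167), and the call was lost without day-21 replicate 1 (adjusted p = 0.0544) and the value was 2.37 without day-0 replicate 2.

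Omega-class Gsto1, which reduces dehydroascorbate and protein mixed disulfides (ENSMUSG00000025068.8, chr19:47854970-47864790, plus strand), was at 60.7, 44.1 and 32.1 CPM on day 0 and at 85.4, 103 and 87.9 CPM on day 21. All day-21 kidneys lay above day 0, with a rise of 2.02-fold (log2 fold change 1.01, SE 0.20, adjusted p = 0.00202). Microsomal Mgst1, a membrane transferase and peroxidase (ENSMUSG00000008540.11, chr6:138140316-138156755, plus strand), was at 70.7, 59.8 and 51.5 CPM and then 119, 110 and 101 CPM. It rose 1.81-fold without overlap (log2 fold change 0.86, SE 0.13, adjusted p = 5.0e-04). These were the only enzymes with a mean of at least 10 CPM called higher with all mice and TMM scaling. Microsomal Mgst3 went from 119, 120 and 90.6 CPM to 67.9, 73 and 67.9 CPM, lower in every day-21 kidney (log2 fold change -0.66, SE 0.13, adjusted p = 0.00198), and lost its call under upper-quartile (-0.57) and library-size scaling (-0.27).

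Gstk1, the kappa-class enzyme of mitochondria and peroxisomes (ENSMUSG00000029864.7, chr6:42245935-42250447, plus strand), was at 56.3, 64.2 and 42.6 CPM on day 0 and at 21, 20.6 and 20.1 CPM on day 21. The day-21 kidneys were nearly equal and all below day 0, a fall of 2.65-fold (log2 fold change -1.40, SE 0.15, adjusted p = 5.1e-05), the largest among Gst genes with the full set of mice. In the theta class, Gstt2 went from 114, 139 and 123 CPM to 79.8, 67.3 and 68.5 CPM (-0.80, SE 0.12, adjusted p = 3.9e-04), a call lost under library-size scaling (-0.41). Gstt1 was at 125, 142 and 103 CPM and then 116, 142 and 122 CPM, with overlap (0.04, 95% interval -0.27 to 0.34).

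Gstp1 of the pi class was at 98.4, 102 and 76.9 CPM on day 0 and at 91.8, 66.6 and 85.9 CPM on day 21, with overlap (-0.19, 95% interval -0.52 to 0.15), and was at 0.20 under library-size scaling. Of its 50-base words, 62.3% also occur in Gstp2. Gstp3 was at 0, 0.165 and 0.412 CPM and then 1.63, 1.43 and 2.08 CPM, called higher (3.12, SE 0.66, adjusted p = 0.00322, and 4.10 without day-0 replicate 3) after passing the filter through day 21 alone. Gstt3 (-0.17) and Gsto2 (-0.45) were not called.

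The 27 enzymes not tested were Gstm3, Gstp2, Gstt4, Mgst2, Sult1c1, Sult1e1, Sult2a1 to Sult2a8, Sult3a1, Sult3a2, Sult6b2, Ugt1a1, Ugt1a5, Ugt1a6a, Ugt1a8, Ugt1a9, Ugt2a1, Ugt2a2, Ugt2b1, Ugt2b35 and Ugt2b36. Of these, 14 had no count in any kidney, and the highest single value was 30 counts of Ugt1a1 in the day-0 mouse of replicate 1. A count of 0 allows up to the floor of 3 counts, so those 14 were not detected in these counts. Gstp2 and Ugt1a rows share much of their sequence with a neighbour, which could lower their counts. Among those without a count, Ugt2a1 and Ugt2a2 share 98.8% and 94.5% of their exon bases with other genes on the same strand. Of the 50-base words of Sult2a2, 62.1% also occur in another gene. Their zeros could therefore also come from reads dropped in counting.

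Genes that supply the donors and handle the products were counted from lists. Of the 5 glutathione supply genes tested, 4 were called lower and Gsr (-0.35) was not called. Gclc, the catalytic subunit of the rate-limiting step, was at -1.30 (adjusted p = 0.00134) and Gss, glutathione synthase, at -1.24 (adjusted p = 5.0e-05). Of 12 tested genes of conjugate breakdown and mercapturate handling, not all of them steps toward the mercapturate, 10 were called lower. Among them, Ggt1, the brush border gamma-glutamyltransferase, went from 976, 1209 and 1152 CPM to 346, 302 and 357 CPM (-1.73, adjusted p = 5.5e-06), and Nat8, which acetylates the cysteine conjugate, had a log2 fold change of -1.68 (adjusted p = 6.5e-05). The lowest was the aminoacylase Acy1 at -2.21 (adjusted p = 4.2e-05), and Ggt5 (0.42) and Ggt6 (-0.24) were not called. Many of these genes are known from the proximal tubule, whose markers fell in the same kidneys. The part of that fall in their values was not tested.

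Among 8 sulfate and PAPS genes, 4 were called lower, with Papss2, which makes PAPS, at -1.62 (adjusted p = 1.3e-04). The sulfate transporter Slc13a1 was among those not called (0.72, adjusted p = 0.0717). It was at 803, 331 and 373 CPM on day 0 and at 1023, 696 and 770 CPM on day 21. Its groups overlapped only through the day-0 mouse of replicate 1. Among 4 UDP-glucuronate genes, the transporter Slc35d1 was called lower (-0.65, adjusted p = 0.0218). Its groups overlapped, with the day-0 mouse of replicate 3 at 31.4 CPM within the day-21 range of 26.7 to 33.6 CPM. Gusb, the lysosomal glucuronidase, was called higher (0.68, adjusted p = 0.0107), and Ugdh, which makes UDP-glucuronate, was at -0.23 and not called. Among 6 efflux pumps, 2 were called higher and 2 lower. Abcc3, a pump for glucuronides, went from 3.21, 3.71 and 4.12 CPM to 15.3, 20.4 and 14.1 CPM (2.17, adjusted p = 2.6e-05), and Abcc4 rose by 0.72 (adjusted p = 0.00371). Abcc2 and Abcg2 fell by 1.11 and 0.85 on the log2 scale (adjusted p = 9.6e-04 and 0.00123).

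Among 11 regulators reported here, 3 were called lower and 1 higher. Those lower were Ppara at -1.97, Hnf4a at -1.28 and Rxra at -0.82, and Ahr was higher at 0.82 (adjusted p = 0.0364). Nfe2l2, which encodes Nrf2, was not called (0.27, adjusted p = 0.0765), nor was its partner Keap1 (0.08). Of 5 Nrf2 targets outside conjugation, 3 were called lower, but Hmox1 (-2.46, adjusted p = 0.0453) was set by the day-0 mouse of replicate 1, since the other day-0 values of 57.9 and 43.7 CPM lay within the day-21 range of 36.2 to 67.4 CPM. That mouse was also the highest in the other genes called lower. On day 0 Osgin1 was at 136, 59.3 and 55.5 CPM (-1.76) and Txnrd1 at 384, 231 and 186 CPM (-0.69). All these values lay above day 21, which reached 27.4 CPM for Osgin1 and 174 CPM for Txnrd1. Nqo1 was at 101, 72.2 and 47.3 CPM and then 68.1, 44.7 and 63.6 CPM, with overlap.

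**Figure D4:**
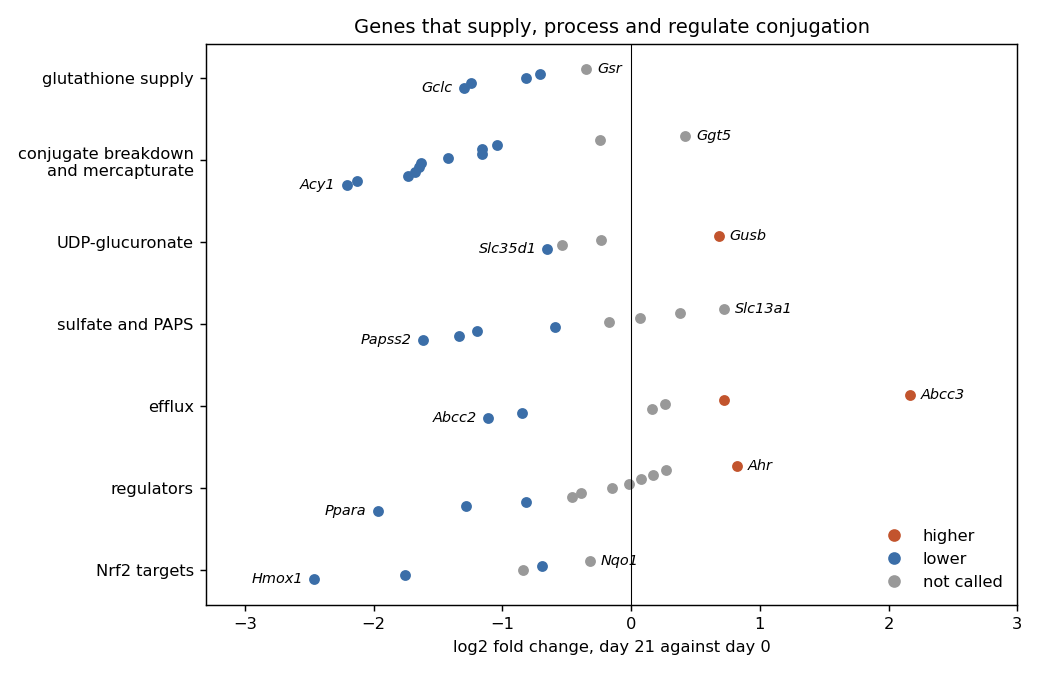
Log2 fold change of day 21 against day 0 for each tested gene reported here of the lists around conjugation, with 1 point per gene coloured by the call and the lowest and highest gene of each list named. In the glutathione supply and conjugate breakdown lists, 14 of 17 points are called lower, while the efflux list holds 2 called higher and 2 called lower.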

How the data were processed

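Total RNA of 6 mouse kidneys was made into TruSeq libraries and sequenced as paired-end reads of 150 bases by the authors. The deposited values were raw counts per gene, which the authors had not normalized, with 1 column per mouse, and the submitters' processing notes name TopHat and mm10. The counting program and its use of strand are not given in the sources used here. Positions and exons came from GENCODE M21.

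Groups were taken from the labels, with 3 mice each, and mice of a group differed by more than sampling noise (chi-square per gene 6.83 to 23.9). Counts were filtered by filterByExpr (minimum count 10, minimum total 15), scaled by TMM and tested with edgeR 4.0.16 (R 4.3.3) by quasi-likelihood without a block, and p-values were adjusted by Benjamini-Hochberg over 16592 genes. An exact permutation test of 3 against 3 cannot go below p = 0.1. The fits were tested on simulated data in which few genes changed, with as many raised as lowered. That test does not bear on the choice of scaling. Alternatives were other scalings and filters, DESeq2 1.42.0, limma 3.58.1 (voom), a replicate block, stricter and looser thresholds and each mouse left out. Promoter windows came from RefSeq (GRCm38.p6), and the pair compared was chosen after its values were seen.

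Members and lists were chosen with earlier results of these data known. Per-mouse values were planned for the highest tested member of each class and the largest called rise and fall, with others named by log2 fold change. Those of further enzymes and of genes outside the rule were added beyond that plan. Each sample has its own number in its title and was taken as 1 mouse. The labels do not state this outright, and p-values measure the spread between these samples, which would be technical in part if any shared a mouse. Proteins were not analysed here. A few regulators and the searches for promoter motifs are not reported here.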

Additional observations from a re-analysis of the deposited data

How the results depend on the processing

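All 20 called enzymes kept their sign under every alternative in which they were tested, and at the same thresholds calls were lost by Gstm6 (without day-21 replicate 1), Ugt1a10 (DESeq2), Mgst3 (upper-quartile and library-size scaling) and Gstt2 (library-size scaling). Library-size scaling gave 5985 genes higher and 1338 lower, 3 Ugt enzymes higher, 2 Gst enzymes lower, a median of 0.07 over the enzymes, log2 sums of 0.08 for Gst, -1.49 for Ugt and -0.52 for Sult, and -0.53 for the Ugt1a locus, whose fold was then under 1.5. It turned Gsta2 (0.31), Gsta4 (0.05), Gstm2 (0.08), Gstm4 (0.24), Gstm7 (0.19), Gstp1 (0.20), Gstt3 (0.23) and Ugt2a3 (0.34) positive, none of them called, and upper-quartile scaling turned Gsta2 (0.01) and Ugt2a3 (0.05). With thresholds of 0.01 for the adjusted p and 2 for the fold, 1918 genes were higher and 1254 lower, with 3 Gst enzymes higher and 2 lower. A filter at a mean of 50 counts left 4 enzymes higher, 2 Gst and 1 Sult among them, and enzymes with a mean of at least 10 CPM, a choice made after seeing the data, gave 2 higher. Without a filter 2 Ugt enzymes were higher, and with DESeq2 0 were (1 at an unadjusted p under 0.05, and 1 by edgeR and by limma-voom). Sult enzymes called lower numbered 3 with RLE scaling, with DESeq2 and at any fold. Within the Ugt1a locus, the row of Ugt1a10 by itself was at 3.34 and that of Ugt1a2 at -1.50.

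With each mouse left out, Gst enzymes called lower ranged from 4 to 7 (7 without day-0 replicate 3), Ugt enzymes called higher from 1 to 2 (2 without day-0 replicate 1) and Sult enzymes called lower from 1 to 3 (2 without day-0 replicate 1 or 3, 3 without day-21 replicate 2). Log2 fold changes ranged from -0.41 to 0.14 for Gsta2, -0.69 to 0.03 for Gsta4, -0.76 to 0.07 for Gsto2, -0.09 to 0.15 for Gstt1, -0.29 to 0.02 for Gstt3, -2.04 to 0.18 for Ugt1a2 and -0.68 to 0.53 for Ugt2a3. The cause of these shifts was not tested.

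The replicate block left the calls of all 40 enzymes as they were (8 higher and 12 lower). The numbers were not taken as pairing, since same-numbered mice deviated from their group means with correlations of -0.019, 0.165 and 0.0896, and day-0 replicate 3 correlated best with day-21 replicate 1 (0.116). Enzymes near the floor, such as Sult6b1, Gsta1 and Gstp3, are limited by depth, with day-0 levels that rest on a few counts.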

Other observations

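Conjugating enzymes outside these families also differed between the groups. Of 9 tested, 4 were called lower and 1 higher. Inmt, an amine N-methyltransferase, was at 777, 789 and 602 CPM on day 0 and at 32.9, 41 and 49.6 CPM on day 21 (log2 fold change -4.13, adjusted p = 5.3e-07), a larger fall than that of any Gst, Ugt or Sult enzyme with all mice and TMM scaling. Gstz1, the tyrosine-pathway enzyme left out of the Gst rule, fell by 1.59 on the log2 scale (adjusted p = 1.5e-05), Glyat, which adds glycine to acyl groups, by 1.43 (adjusted p = 2.1e-05) and the thiopurine methyltransferase Tpmt by 1.08 (adjusted p = 4.2e-05). Nnmt, the nicotinamide methyltransferase, was at 1.5, 0.33 and 1.55 CPM and then 6.01, 5.79 and 7.66 CPM (2.56, adjusted p = 8.3e-04).

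Of 5 structural relatives of Gst tested, most of them known from prostaglandin and leukotriene synthesis, 4 were called higher and Gstcd (0.21) was not called. Hpgds, the hematopoietic prostaglandin D synthase, was at 0.602, 0.165 and 1.13 CPM on day 0 and at 5.58, 5.97 and 6.13 CPM on day 21 (3.26, adjusted p = 2.5e-04). Alox5ap rose by 2.22 (adjusted p = 2.2e-05) and Ltc4s, leukotriene C4 synthase, by 1.41 (adjusted p = 0.00283). The 7 leukocyte markers rose in the same kidneys, and their part in these values was not tested.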
